A study of Homo sapiens with 6 samples.

Results

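The 10 genes described here code for enzymes that carry long-chain fatty acids into mitochondria and shorten them by beta-oxidation: CPT1A, CPT2, ACADVL, ACADM, ACADS, ECHS1, HADH, HADHA, HADHB and ACAA2. They are 10 of the 57445 genes in the count table, found by gene symbol, and all 10 were among the 17129 genes tested. ACAA2 was picked because its counts were far lower in both clones than in the parental line. The other 9 were picked as enzymes of the same pathway, with results of these data already known. The values of ACAA2 in the clones, against WT and against each other, are therefore given as a description with no test.

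The 6 RNA-seq libraries come from H358, a human lung cancer cell line, in 3 groups of 2: the clones C1 and C2, both labelled isogenic with BRMS1v2 A273V/A273V, and the parental cells, labelled BRMS1 WT. Each clone is 1 line, and how the clones were derived is not labelled, so the genotype and the history of a clone cannot be told apart. All groups grew in RPMI with 10% FBS. No label calls the 2 replicates in each group separate cultures, and p-values measure only the spread between these libraries, which may be technical.

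Each library held 27527867 to 37146270 reads counted in genes. Replicate number parted the libraries on the first principal component (47.6% of the variance), and clones and WT parted on the second (32.7%). A second fit took out the replicate number as a block, and its values, called blocked here, are given where they change a call. BRMS1, whose genotype parts the groups, had between 25.2 and 30.0 CPM (reads of a gene scaled to library size, after TMM normalisation) in the 4 clone libraries, against 42.9 and 34.7 CPM in WT. Gene counts do not show which allele is present. Of 14 markers of lung epithelium, 9 were above 1 CPM in every library, among them the keratins KRT7, KRT8, KRT18 and KRT19, EPCAM and the lung lineage factor NKX2-1, while the surfactant genes SFTPB and SFTPC and the club cell gene SCGB1A1 were at or near 0. The 14 summed to between 6221 and 7487 CPM in the clones, against 5331 to 5784 CPM in WT. Of the 10 of them that were tested, 1 rose (EPCAM) and 2 fell (MUC1 and NAPSA) for the mean of the clones with the block, which called 4.12% of all genes higher and 5.63% lower, and 0 were called without it. The 12 markers of other cell types in the table summed to between 29.7 and 61.1 CPM in the clones, against 39.5 to 42.4 CPM in WT. Most of that was COL1A1, and 0 of the 5 tested were called. The part of these differences in the results below was not tested.

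Beta-oxidation removes the 2 carbons at the end of a fatty acyl chain in rounds of 4 reactions in the mitochondrial matrix. CPT1A and CPT2 pass the acyl group across the mitochondrial membranes as acylcarnitine. Acyl-CoA dehydrogenases, chosen by chain length, make the first double bond, hydratases add water, 3-hydroxyacyl-CoA dehydrogenases oxidise again, and thiolases cut off acetyl-CoA. For long chains the last 3 steps sit in the trifunctional protein, made of HADHA and HADHB, and for shorter chains they are run by ECHS1, HADH and ACAA2.

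Shown are the bases before the start of ACAA2, the enzyme with the largest difference, and those that HADHA and HADHB share between their starts. The part of these sequences in the results below was not tested. They were taken from RefSeq promoter windows on GRCh38.p14, which hold 250 bases before and 50 after a start. All 10 genes matched, with 12 windows. Capitals mark CG steps.
ACAA2, chr18:49813534-49813783, minus strand: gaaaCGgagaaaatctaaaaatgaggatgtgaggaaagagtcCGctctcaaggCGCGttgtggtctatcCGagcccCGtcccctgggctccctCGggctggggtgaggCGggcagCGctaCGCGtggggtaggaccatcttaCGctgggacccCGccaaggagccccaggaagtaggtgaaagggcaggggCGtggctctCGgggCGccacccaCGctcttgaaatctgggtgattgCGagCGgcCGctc
HADHA and HADHB, chr2:26244689-26244882, plus strand: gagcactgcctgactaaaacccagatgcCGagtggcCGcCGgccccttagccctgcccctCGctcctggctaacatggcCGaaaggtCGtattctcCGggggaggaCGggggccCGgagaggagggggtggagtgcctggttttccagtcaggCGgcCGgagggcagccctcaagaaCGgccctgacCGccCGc

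The 250 bases before ACAA2 held 20 CG steps, and its whole window held 27, more than 71.8% of the 35116 windows in the table. HADHA and HADHB are read in opposite directions from starts with 306 bases between them, and their windows share 194 bases. Motifs were searched on both strands of each window. None of the 12 held the PPAR-RXR element, AGGTCA given again after 1 spacer base (0.0228% of all windows hold it), its half-site AGGTCA alone (13.8%), the estrogen-related receptor element TCAAGGTCA, which holds the half-site (0.353%), or the NRF1 palindrome, GCGCA followed by TGCGC (1.24%). The GC box GGGCGG was in 8 windows, against 45.0% of all windows, and 8 of the 10 genes had it. The windows of ACAA2 and CPT1A did not hold it. CCAAT was in 1 window, that of HADH, against 34.6% of all windows. A match describes these letters only.

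ACAA2 (ENSG00000167315.13), the 3-ketoacyl-CoA thiolase of the mitochondrial matrix, was far lower in both clones than in WT. Its counts were 20 and 5 in C1 and 10 and 10 in C2, against 196 and 199 in WT. That is 0.565 and 0.167 CPM in C1 and 0.351 and 0.309 CPM in C2, against 6.27 and 6.70 CPM in WT. All 4 clone libraries lay below both WT libraries, as in 11.9% of all genes tested. Relative to their mean, the libraries of C1 were the furthest apart and those of WT the closest.

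Summed over its libraries, C1 held 5.91% of the WT level of ACAA2, or 16.9-fold less (exact 95% interval 11.3 to 26.5, counting error only). C2 held 5.08%, or 19.7-fold less (12.6 to 32.6). The fitted log2 ratio was -4.11 for C1 (SE 0.57) and -4.28 for C2 (SE 0.58). In C1 it was -5.23 without C1 replicate 1 and -3.50 without C1 replicate 2. Of the 17129 genes tested, 0.304% had a difference as low in C1 and 0.234% in C2. ACAA2 was picked for its low counts in both clones, so this rank, the folds and their intervals are a description with no test. Within replicate numbers 1 and 2, the log2 difference was -3.33 and -4.87 in C1, and -3.93 and -4.18 in C2, so both clones were low against the WT library of either number. In bulk RNA, fewer cells with the transcript and less transcript per cell cannot be told apart.

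C2 against C1 gave a log2 ratio of -0.17 for ACAA2. The gene was picked for low counts in both clones, so this value too is a description with no test. Without C1 replicate 1 the sign turned, to 0.94.

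**Figure D1:**
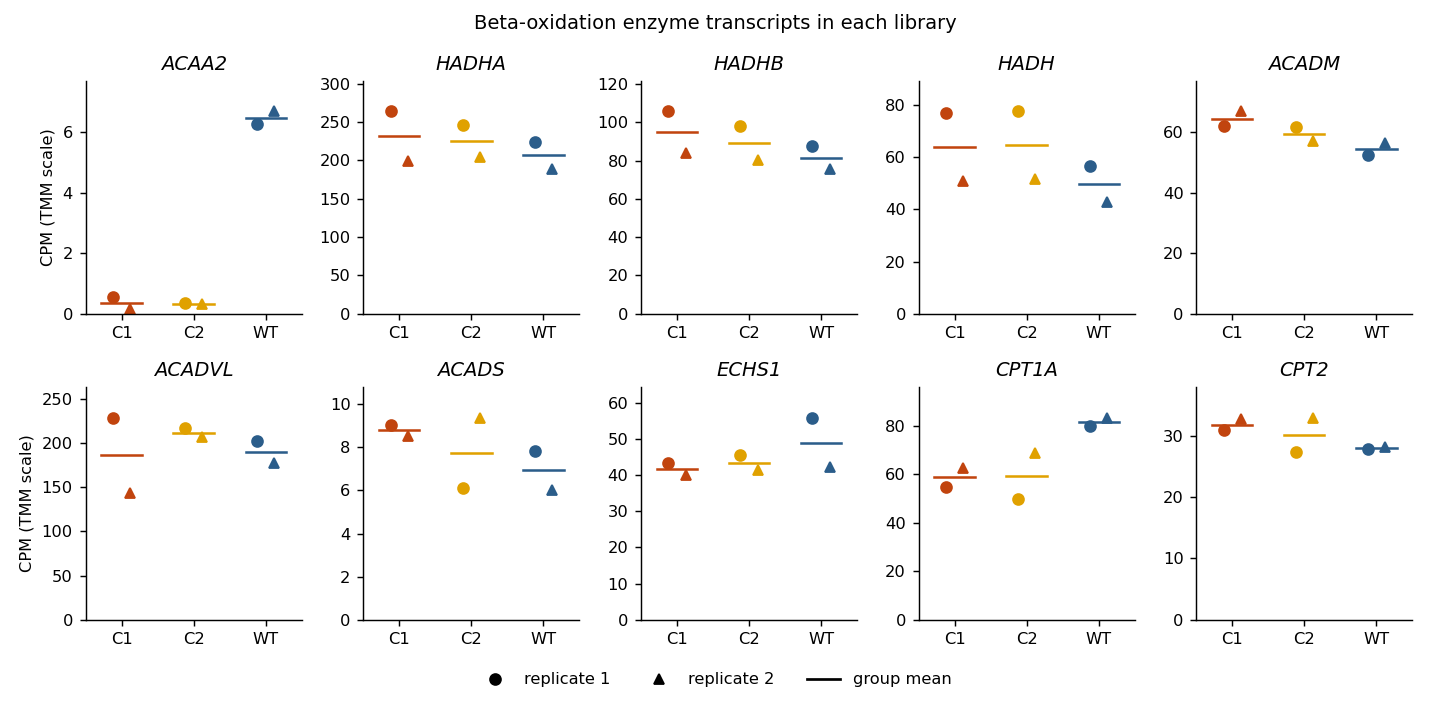
CPM on the TMM scale (vertical axes, from 0) of the 10 enzymes in each library of C1, C2 and WT, with replicate 1 as circles, replicate 2 as triangles and the group mean as a bar (n = 2 each). ACAA2 lies between 0.167 and 0.565 CPM in the clones, against 6.27 and 6.70 CPM in WT. CPT1A is the other enzyme whose clone libraries all lie below both WT libraries, as in 11.9% of all genes tested.

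Taken by their median, the genes beside ACAA2 on chromosome 18 were near their WT levels. Gene order was taken from GENCODE 29. Over the 25 expressed genes on each side (mean log2 CPM above 2), the median log2 ratio to WT was 0.01 for C1 and -0.01 for C2, and none of the 50 was as low as ACAA2 in either clone. On one side, the endothelial lipase gene LIPG had 7.26 and 3.91 CPM in C1 and 6.77 and 11.8 CPM in C2, against 8.67 and 11.4 CPM in WT. Its log2 ratio of -0.84 for C1 and -0.11 for C2 did not pass (adjusted p = 0.722 and 0.997 by edgeR). Beyond it, the ribosomal protein gene RPL17 and C18orf32 had differences between -0.05 and 0.11.

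On the other side, the unconventional myosin gene MYO5B had 107 and 115 CPM in C1 and 104 and 111 CPM in C2, against 92.3 and 90.4 CPM in WT. It did not pass either (log2 difference 0.28 and 0.24, adjusted p = 0.78 and 0.903 by edgeR). CCDC11, with 12 to 31 counts per library (log2 ratio -0.28 and -0.73, not called), and the methyl-CpG-binding MBD1 (-0.05 and -0.02) followed. GENCODE 29 lists 1 gene that overlaps ACAA2, on the same strand, with 1 count over all 6 libraries. Reads from the overlap cannot be assigned, and how many ACAA2 lost to it was not tested.

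**Figure D2:**
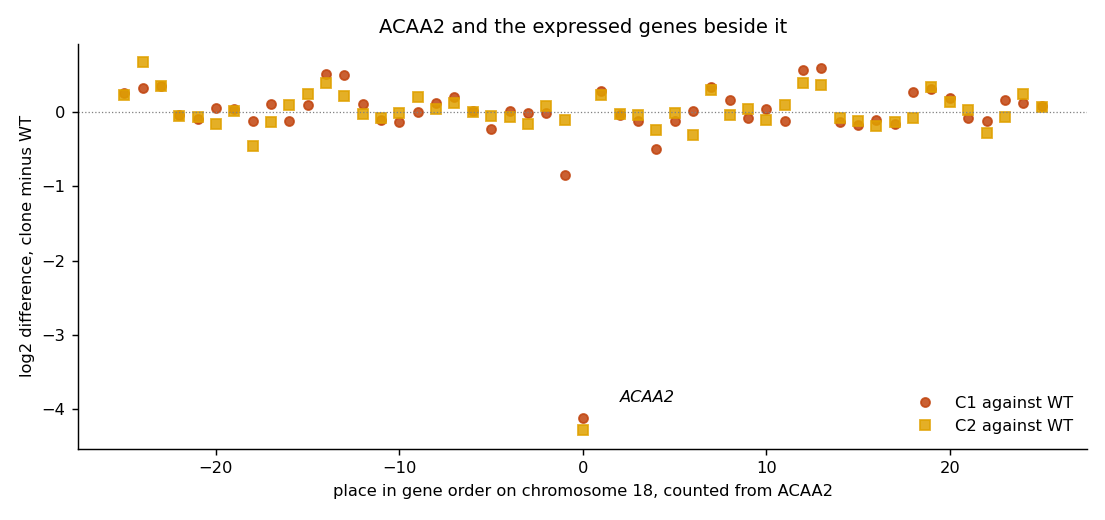
Log2 difference, clone minus WT (vertical axis), of ACAA2 and the 25 expressed genes on each side of it in gene order (horizontal axis, 0 is ACAA2), with C1 as circles and C2 as squares. ACAA2 stands at -4.11 and -4.28, while the medians of its neighbours are 0.01 and -0.01.

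The genes whose profile over the 6 libraries was nearest to that of ACAA2 were IFI27, PNMA2, CYP24A1, AK4 and ATP8B2. They are the first 5 of 12867 tested genes with a mean log2 CPM of at least 1, by the root mean square difference of centred log2 CPM, which was between 0.68 and 0.75. AK4, a mitochondrial adenylate kinase, had 1.16 and 1.47 CPM in C1 and 1.72 and 2.17 CPM in C2, against 15.7 and 15.6 CPM in WT. CYP24A1, the mitochondrial vitamin D 24-hydroxylase, had 1.70 and 1.54 CPM in C1 and 2.18 and 1.05 CPM in C2, against 11.6 and 14.4 CPM in WT. Since these genes were picked for their likeness to ACAA2, their values are a description with no test, and ACAA2 itself, with a mean log2 CPM of -0.008, lies below the level asked of them. IFI27, an interferon-induced gene, PNMA2 and ATP8B2, a flippase, had log2 differences of -3.64, -3.25 and -4.07 for the mean of the clones against WT.

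No other step of the pathway had a difference of that size. Of the 9 other enzymes, edgeR called 0 in C1, where 0.0117% of all genes tested were called, 0 in C2 (0.0117%) and 0 for the mean of the clones (0.198%). The unadjusted p was under 0.05 for 0, 0 and 1 of them, against 1348, 1156 and 1677 of the 17129 genes tested. By DESeq2 0 of the 9 were called each time. Blocked, edgeR called 0 in C1 (7.03% of all genes, 2.96% higher and 4.07% lower), 0 in C2 (4.54%, 1.94% higher and 2.59% lower) and 1, CPT1A, for the mean of the clones (9.74%), as did DESeq2. Without the block, 0.0234% of all genes were called higher for the mean of the clones and 0.175% lower. HADH and CPT1A were the 2 with an unadjusted p under 0.05 in each blocked comparison with WT by edgeR. Of all genes tested, 3649 in C1, 3258 in C2 and 4135 for the mean of the clones were under it, a like share. The log2 ratios of the 9 lay between -0.48 and 0.36 in C1 and between -0.46 and 0.38 in C2. Their medians were 0.18 and 0.12, against medians of -0.005 and 0.006 over all genes tested. Both comparisons use the same WT libraries.

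CPT1A (ENSG00000110090.8), the liver-type carnitine palmitoyltransferase of the outer mitochondrial membrane and the step inhibited by malonyl-CoA, had lower values in all 4 clone libraries than in WT. Its level was 54.7 and 62.8 CPM in C1 and 49.9 and 68.7 CPM in C2, against 79.9 and 83.5 CPM in WT. No clone library reached a WT library, which held in this direction for 1 of the 9 enzymes other than ACAA2 and for 11.9% of all genes tested, a like share. By edgeR, C1 stood at a log2 ratio of -0.48 to WT (SE 0.21, 95% interval -0.995 to 0.04, adjusted p = 0.673), and C2 at -0.46 (SE 0.21, -0.98 to 0.06, adjusted p = 0.789). For the mean of the clones it was -0.47 (-0.91 to -0.03, adjusted p = 0.47), and blocked -0.48 (-0.77 to -0.19, adjusted p = 0.042, and 0.047 by DESeq2). The blocked call was lost without WT replicate 1 (adjusted p = 0.27), C1 replicate 2 (0.057), C2 replicate 1 (0.26) or C2 replicate 2 (0.15).

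CPT1A lies on chromosome 11 among genes that were lower to a like degree. The 50 expressed genes around it had medians of -0.40 for C1 and -0.38 for C2 on the log2 scale, and 90% and 92% of them were below 0. In C1, 21 of the 50 were at or below the value of CPT1A, and in C2, 20. BRMS1 lies on chromosome 11 too. The part of the lower levels on this chromosome in the values of CPT1A and BRMS1 was not tested.

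CPT2, the transferase of the inner membrane that rebuilds the acyl-CoA, had 30.9 and 32.7 CPM in C1 and 27.4 and 33.0 CPM in C2, against 27.9 and 28.2 CPM in WT. One C2 library was below both WT libraries and the other above both. C1 stood at a log2 ratio of 0.18 (95% interval -0.29 to 0.65) and C2 at 0.11 (-0.36 to 0.58). Neither passed (adjusted p = 0.927 and 0.995 by edgeR). The 50 genes around CPT2 on chromosome 1 had medians of 0.01 and -0.04.

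The acyl-CoA dehydrogenases were not called in either clone. ACADVL, which takes very long chains at the inner membrane, had 229 and 144 CPM in C1 and 217 and 206 CPM in C2, against 202 and 177 CPM in WT. The C1 libraries lay on either side of all others, and the log2 ratio was -0.03 for C1 (-0.64 to 0.59) and 0.16 for C2 (-0.46 to 0.77). ACADM, the medium-chain enzyme whose loss is a common inherited defect of fatty acid oxidation, had 62.1 and 66.8 CPM in C1 and 61.6 and 56.9 CPM in C2, against 52.3 and 56.5 CPM in WT. It was the 1 enzyme of these 9 with all 4 clone libraries above both WT libraries, as were 11.9% of all genes tested. The lowest clone library and the highest WT library were 56.9 and 56.5 CPM, and its log2 ratio of 0.24 for C1 (-0.17 to 0.66) and 0.12 for C2 (-0.29 to 0.53) did not pass (adjusted p = 0.835 and 0.987 by edgeR).

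ACADS, the short-chain enzyme, had 9.04 and 8.52 CPM in C1 and 6.11 and 9.38 CPM in C2, against 7.83 and 6.02 CPM in WT. Its log2 ratio was 0.34 for C1 (-0.43 to 1.11) and 0.16 for C2 (-0.61 to 0.93), and neither was called. One C2 library lay between the WT libraries and the other above both. Its 50 neighbours on chromosome 12 had medians of 0.28 and 0.27, close to its own values. Those of ACADVL on chromosome 17 had 0.02 and -0.01, and those of ACADM on chromosome 1 had 0.01 and -0.01.

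The soluble hydratase and dehydrogenase did not pass either. ECHS1, the short-chain enoyl-CoA hydratase, had 43.4 and 40.1 CPM in C1 and 45.4 and 41.4 CPM in C2, against 55.9 and 42.1 CPM in WT, so WT replicate 1 stood above the other 5 libraries. Its log2 ratio was -0.23 for C1 (-0.73 to 0.27) and -0.17 for C2 (-0.68 to 0.33), and the 28 expressed genes around it on chromosome 10 had medians of -0.04 and -0.02. HADH, the 3-hydroxyacyl-CoA dehydrogenase for shorter chains, had 77.1 and 51.0 CPM in C1 and 77.7 and 51.7 CPM in C2, against 56.6 and 43.0 CPM in WT. Its values were almost equal in the clones within each replicate number, and C1 stood at a log2 ratio of 0.36 (-0.38 to 1.11) and C2 at 0.38 (-0.37 to 1.12). These were the highest ratios of the 9 enzymes, with adjusted p = 0.887 and 0.931 by edgeR (blocked 0.216 and 0.223). Its 50 neighbours on chromosome 4 had medians of 0.09 and 0.18.

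HADHA and HADHB, the alpha and beta subunits of the trifunctional protein, had a ratio of counts between 2.38 and 2.56 in all 6 libraries. How constant such a ratio is for other pairs of genes was not tested. HADHA, which carries the hydratase and dehydrogenase, had 264 and 200 CPM in C1 and 245 and 205 CPM in C2, against 224 and 189 CPM in WT. HADHB, the long-chain thiolase, had 106 and 83.9 CPM in C1 and 98.3 and 80.4 CPM in C2, against 87.5 and 75.7 CPM in WT. For both, replicate 1 was above replicate 2 in every group, and clones and WT overlapped when the number was ignored. Within numbers 1 and 2, the log2 difference from WT was 0.24 and 0.08 in C1 and 0.13 and 0.11 in C2 for HADHA. For HADHB it was 0.27 and 0.15 in C1 and 0.17 and 0.09 in C2. Both clones are set against the same WT libraries, and neither gene was called with the block.

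The ratio of HADHA to HADHB counts was 2.494 and 2.378 in C1 and 2.498 and 2.544 in C2, against 2.556 and 2.499 in WT. It averaged 2.44 ± 0.0820 in C1, 2.52 ± 0.0326 in C2 and 2.53 ± 0.0402 in WT (SD, n = 2 each). The 2 genes overlap in GENCODE 29 on opposite strands. The strand setting of the counting is not given in the sources used here, so reads from the overlap cannot be assigned. The same holds for ACADVL with DLG4 and CPT2 with C1orf123, and ACADM overlaps RABGGTB on its own strand. The log2 ratio to WT of HADHA was 0.17 for C1 (-0.37 to 0.70) and 0.12 for C2 (-0.41 to 0.66). For HADHB it was 0.22 for C1 (-0.29 to 0.73) and 0.13 for C2 (-0.38 to 0.64), and the genes around both on chromosome 2 had medians between 0.12 and 0.14.

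**Figure D3:**
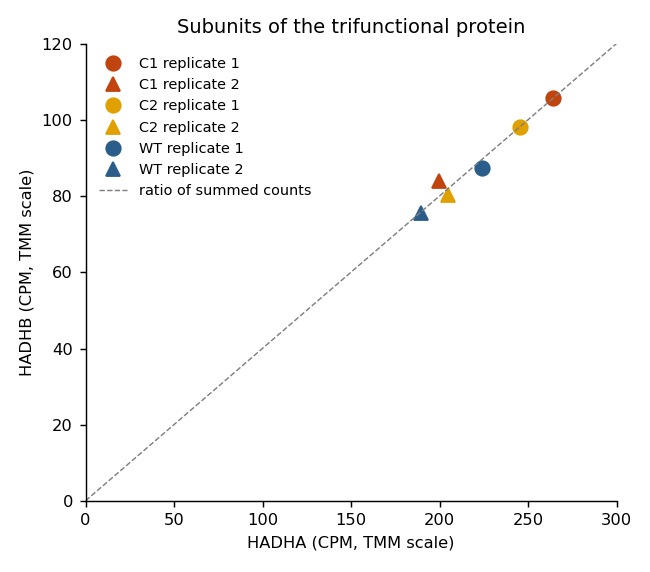
HADHB against HADHA (CPM on the TMM scale, both axes from 0) in each library of C1, C2 and WT, with replicate 1 as circles and replicate 2 as triangles. The points follow the dashed line of the ratio of summed counts, since the ratio of HADHA to HADHB counts lies between 2.38 and 2.56 in all 6 libraries.

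**Figure D4:**
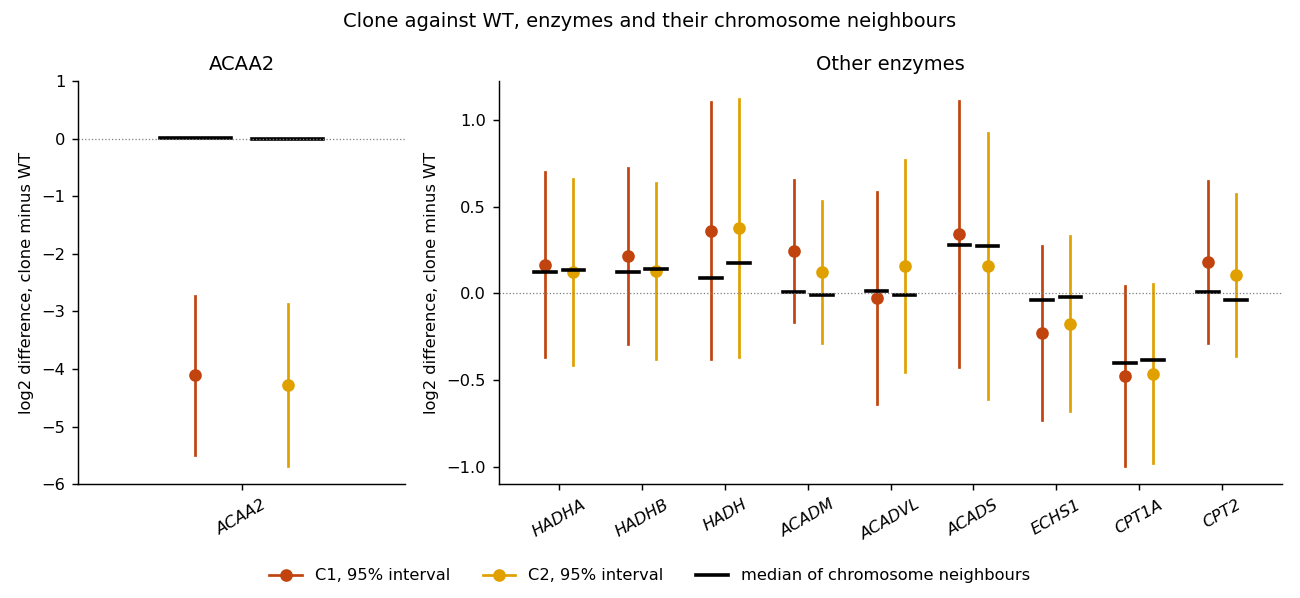
Log2 difference, clone minus WT, for ACAA2 (left) and the other 9 enzymes (right, on a finer scale), with C1 left of C2, lines for 95% intervals not adjusted for the number of genes, and black bars for the median of the chromosome neighbours. The intervals of ACAA2 are a description with no test, since these values chose the gene. The intervals of all 9 enzymes on the right include 0, and the bars of CPT1A are at -0.40 and -0.38.

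C2 against C1 showed no called enzyme. Leaving ACAA2 out, the log2 differences of the 9 lay between -0.18 and 0.19, and edgeR called 0 of them, as it called 0% of all genes tested (the unadjusted p was below 0.05 for 61 genes). Blocked, it called 0 as well (below 0.05 unadjusted for 642 genes), while 0 genes were called by DESeq2 without the block and 20 with it, 0 of them among the 9. In 1 of the 9, ACADM, both C2 libraries lay below both C1 libraries, as did 7.41% of all genes tested, and in 0 above (7.21%). None of the 9 had an unadjusted p under 0.05 in any of the 4 fits. The widest 95% interval was that of ACADS, -0.95 to 0.58.

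Between replicate 2 and replicate 1, a contrast that the choice of ACAA2 did not use, HADH fell. It was lower in replicate 2 in 3 of 3 groups, with a log2 difference of -0.53 (SE 0.13, 95% interval -0.80 to -0.25, adjusted p = 0.0088 in edgeR). It was the 1 enzyme of 10 that was called lower, against 12.2% of all genes tested, and 0 were called higher (12.5%). DESeq2 called HADH too. Without C2 replicate 1 or C2 replicate 2 its adjusted p was 0.14 and 0.13. HADHA (-0.30, adjusted p = 0.067), HADHB (-0.28, 0.11) and ACADVL (-0.31, 0.11) did not pass in edgeR. In 4 of the 10, HADHA, HADHB, HADH and ECHS1, all 3 replicate 2 libraries lay below all 3 replicate 1 libraries, as did 18.5% of all genes tested. What the number marks is not stated.

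Per length, ACAA2, whose overlap with another gene may have cost it reads, had the lowest counted level of the 10 enzymes in every group. With exon lengths from GENCODE 29, its level was 0.0722 ± 0.0555 CPM per kb in C1, 0.0651 ± 0.00578 in C2 and 1.28 ± 0.0598 in WT (SD, n = 2 each). In WT the order of levels was HADHA (47.1 ± 5.57 CPM per kb), ACADVL (39.0 ± 3.54), ECHS1 (30.3 ± 6.04), HADHB (19.1 ± 1.96), CPT1A (12.4 ± 0.378), ACADM (11.4 ± 0.619), HADH (4.12 ± 0.791), CPT2 (2.68 ± 0.0235) and ACADS (2.62 ± 0.484). Neighbours in that order did not differ beyond their SDs in WT: HADHA and ACADVL, ACADVL and ECHS1, and CPT2 and ACADS. Exon lengths from the basic transcript set were an alternative chosen after seeing the data. With them, ACADVL came before HADHA, HADHB before ECHS1 and ACADM before CPT1A in all 3 groups. HADH moved to place 5 in WT, and ACAA2 was last again. CPT2 came before ACADS in all 3 groups, and in WT they lay apart (8.81 ± 0.0773 against 3.32 ± 0.613 CPM per kb). In both clones, with the full exon lengths, ACADM came before CPT1A and ACADS before CPT2.

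Of the 5 other thiolase genes tested, 1, ACAT1, fell with the block, which called 5.63% of all genes lower for the mean of the clones. ACAT1, the mitochondrial acetoacetyl-CoA thiolase of ketone body and isoleucine metabolism, had 31.1 and 18.6 CPM in C1 and 32.3 and 24.4 CPM in C2, against 53.4 and 54.6 CPM in WT. All 4 clone libraries were between 34.5% and 59.8% of the WT mean. For the mean of the clones its log2 difference was -1.03 (adjusted p = 0.24 in edgeR), and blocked -1.06 (SE 0.16, adjusted p = 0.0014), with adjusted p = 0.085 and 0.098 without C2 replicate 1 or 2. ACAT1 lies on chromosome 11 too, where the 50 expressed genes around it had medians of -0.41 in C1 and -0.37 in C2, and 3 and 1 of them were at or below its own values of -1.12 and -0.93. HADHB, the peroxisomal ACAA1 and SCP2 and the cytosolic ACAT2 were not called.

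**Figure D5:**
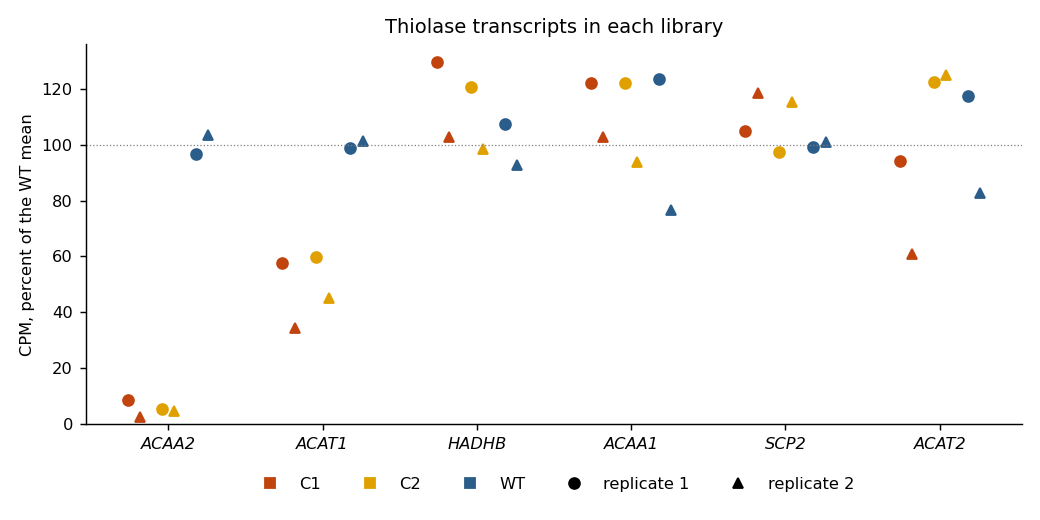
CPM of 6 thiolase genes in each library as a percent of the WT mean (vertical axis, from 0), in C1, C2 and WT from left to right within each gene, with replicate 1 as circles and replicate 2 as triangles. ACAA2 lies between 2.58% and 8.72% in the clones and ACAT1 between 34.5% and 59.8%, while the clone libraries of the other 4 genes lie at 61.0% or above.

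The other genes around the pathway were taken by list. Without the block edgeR called 0 in each list below. For the mean of the clones, 0 to 3 per list were below 0.05 before adjustment, against 1677 of the 17129 genes tested. By DESeq2 without the block, 1 gene each was called among the ketone body, branched-chain amino acid and regulator genes and 0 in the other lists. The lists below were tested for the mean of the clones against WT, where the blocked fit called 4.12% of all genes higher and 5.63% lower, and the median of all genes was -0.01. In that fit, 4135 of the 17129 genes tested had an unadjusted p under 0.05. Another list held 18 tested genes in or near mitochondrial beta-oxidation, such as the trans-2-enoyl isomerases, the electron transfer flavoprotein, a carnitine carrier and acyl-CoA thioesterases. Of these, 0 rose and 0 fell (6 at an unadjusted p under 0.05, 1 called by DESeq2 with the block, median -0.13). ACADSB, the short/branched-chain dehydrogenase, rose in C1 by 0.84 on the log2 scale (blocked adjusted p = 0.046 in edgeR), with 10.5 and 9.35 CPM in C1 and 8.95 and 7.24 CPM in C2, against 6.46 and 4.71 CPM in WT. It was not called in C2 (0.225) or for the mean of the clones (0.0518), which passed in 1 of 6 fits that each left out a library. Of 18 citrate cycle genes, 0 rose and 0 fell (3 at an unadjusted p under 0.05, 1 called by DESeq2 with the block; median 0.10).

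Of 15 genes of fatty acid uptake, binding and activation, 3 fell and 0 rose with the block (2 called by DESeq2 with the block, median -0.11). CD36, the fatty acid translocase, was low throughout, with 6 and 3 counts in C1 and 8 and 11 in C2, against 14 and 53 in WT (blocked log2 difference -2.26, adjusted p = 0.013 in edgeR). Without WT replicate 2 the adjusted p was 0.45. FABP5, a fatty acid-binding protein, had 9.21 and 3.37 CPM in C1 and 9.16 and 5.94 CPM in C2, against 16.5 and 9.15 CPM in WT (blocked -0.92, adjusted p = 0.016). Its C1 and C2 libraries of replicate 1 were level with WT replicate 2, and each clone library was below the WT library of its own number. SLC27A5, an acyl-CoA synthetase of the bile acid pathway, was the third (-0.69, 0.039), where the 31 expressed genes around it had a median of -0.15. CD36 and FABP5 also lost the call without either C2 library (adjusted p = 0.13 and 0.23, and 0.18 and 0.13), and SLC27A5 without any library but C1 replicate 1 (up to 0.23).

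Among 22 regulators and PPAR target genes, 1 rose and 1 fell with the block (median -0.03). PPARGC1B, the coactivator PGC-1beta of mitochondrial genes, had 2.43 and 2.34 CPM in C1 and 2.25 and 3.03 CPM in C2, against 7.71 and 7.13 CPM in WT. No clone library reached a WT library, as in 11.9% of all genes tested. The log2 difference was -1.56 (adjusted p = 0.091 in edgeR), or blocked -1.57 (SE 0.23, adjusted p = 0.00079). With each library left out, the blocked value lay between -1.71 and -1.41, and the call was lost without C2 replicate 1. RXRB, a partner receptor of PPARs, rose by 0.49 (blocked adjusted p = 0.032), where the genes around it had a median of 0.30. That call was lost without either WT or either C2 library (up to 0.21).

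Of 19 genes of branched-chain amino acid breakdown, 1 fell and 0 rose with the block (2 called by DESeq2 with the block, median -0.01). BCAT1, the cytosolic aminotransferase, had 59.9 and 82.3 CPM in C1 and 39.1 and 59.4 CPM in C2, against 175 and 352 CPM in WT. Its blocked log2 difference was -2.10 (SE 0.14, adjusted p = 7.65e-07 in edgeR, and 0.079 without the block), and the blocked call held without each of the 6 libraries. Of 18 peroxisomal genes, 1 rose, the acyl-CoA transporter ABCD3 (0.48, blocked adjusted p = 0.041; median of the list 0.02). Its call was lost without WT replicate 2, C1 replicate 2 or either C2 library (up to 0.25). Of 12 genes of lipolysis and lipid storage, 1 fell, the lipid droplet gene PLIN4, which was below 1 CPM in every library (-1.73, 0.045; median 0.00), and DESeq2 called 0. That call was lost without any library but C1 replicate 1 (up to 0.2). Of 7 ketone body genes, ACAT1 was the 1 that fell, and 0 rose (median 0.09).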

How the data were processed

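Per the submitters' processing notes, reads were handled with cutadapt 1.6, STAR 2.5.0a and HTSeq 0.5.3 on hg19. The annotation release and the strand setting are not given in the sources used here. The deposited table holds raw gene counts for the 6 libraries and, below them, 5 HTSeq totals, which held 21.3% to 22.4% of the reads and were left out. All value columns matched a library (0 were left over).

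The analysis used R 4.3.3 with edgeR 4.0.16 (limma 3.58.1) and, as an alternative, DESeq2 1.42.0. Genes were kept by filterByExpr and scaled by TMM, and log2 CPM used a prior count of 2. Group means over all 6 libraries were compared by edgeR's quasi-likelihood test (robust), with a Benjamini-Hochberg adjustment over the 17129 genes tested and a threshold of 0.05. Intervals are 95% and not adjusted.

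Same-numbered libraries deviated together (correlations 0.584 for C1 and WT, 0.634 for C2 and WT and 0.701 for C2 and C1), so the replicate number was also fitted as a block. This pairing comes from the data alone. It leaves 2 residual degrees of freedom, against 3 without it. Replicates were not copies of each other (chi-square of 62.5 to 82.0 per gene). The scripts were tested on simulated data.

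Members, gene lists and tests were chosen with earlier results of these data known. Named are all 10 enzymes, in each list up to 4 called genes by the largest difference for the mean of the clones, the 5 profiles nearest to ACAA2 and the 3 tested genes on each side of it. Exon lengths of the basic set and the neighbourhoods of list genes were added after seeing the data. Gene order, overlaps and exon lengths came from GENCODE 29 (GRCh38), matched by stable ID for 97.3% of genes tested. That build is not hg19, so coordinates are given for the RefSeq windows only. Intervals for counts are exact and cover counting error only.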

Additional observations from a re-analysis of the deposited data

How the results depend on the processing

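For ACAA2, the log2 ratio to WT stayed between -5.25 and -3.49 in C1 and between -4.81 and -3.78 in C2 when each library was left out, with or without the block. The numbers of genes called depended on the setting. Of the 9 other enzymes, 0 or 1 were called. Against WT, edgeR called between 0.0117% of all genes (C1 or C2, without the block) and 9.74% (mean of the clones, blocked), a like share. Against 2 genes in C1, 2 in C2 and 34 for the mean of the clones, no filter on low counts gave 296, 209 and 436, and DESeq2 260, 207 and 379. The replicate block gave 1204, 777 and 1669, and the block with DESeq2 1164, 833 and 1506, with 20 for C2 against C1 in place of 0. Of the 9 enzymes, 1 (CPT1A) was called for the mean of the clones under the block and under the block with DESeq2, in place of 0, and the block changed no other call of these 9 in the comparisons with WT or between clones.

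Leaving out each library in turn, with or without the block, moved the genes called between 0 and 1776 in C1, 0 and 1756 in C2, 0 and 2277 for the mean of the clones, 0 and 343 for C2 against C1, and 617 and 4849 for replicate 2 against replicate 1. Enzymes called ranged between 0 and 1 in C1, C2, the mean of the clones and the replicate contrast. CPT1A was the 1 called in C1 and in C2, under the block without WT replicate 2, and HADH the 1 in the replicate contrast. Signs turned for the following log2 differences, given as their ranges over the libraries left out. Against WT, these were HADHA (-0.035 to 0.363) and ACADVL (-0.386 to 0.278) in C1; HADHA (-0.006 to 0.257), HADHB (-0.014 to 0.245), ACADVL (-0.043 to 0.341), ACADS (-0.31 to 0.568), ECHS1 (-0.36 to 0.052) and CPT2 (-0.058 to 0.243) in C2; and ACADVL (-0.118 to 0.222), ACADS (-0.056 to 0.583) and ECHS1 (-0.388 to 0.023) for the mean of the clones. For C2 against C1 they were ACAA2 (-0.787 to 0.957), HADHA (-0.23 to 0.15), HADHB (-0.244 to 0.067), HADH (-0.306 to 0.319), ACADVL (-0.112 to 0.536), ACADS (-0.666 to 0.211), ECHS1 (-0.037 to 0.137), CPT1A (-0.265 to 0.228) and CPT2 (-0.244 to 0.056). For replicate 2 against replicate 1 they were ACAA2 (-0.935 to 0.031), ACADM (-0.006 to 0.113) and ACADS (-0.228 to 0.259). The cause was not tested. A lone library left in a group is assumed to vary like the other groups. DESeq2 size factors gave the same counts of genes called in the comparisons with WT and between clones. ACAA2 in the clones rests on 5 to 20 counts per library, which limits the precision of its fold.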
